A study of Homo sapiens with 8 samples.

Results

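Conserved γ-H2AX peaks near the ends of the human chromosomes were described here against those further inside. A peak was called terminal when its midpoint lay under 15 Mb from position 0 or from the hg38 length of its chromosome. This rule took 257 of the 546 conserved peaks on chromosomes 1 to 22 and X, and the other 289 were called interior. The short arms of chromosomes 13, 14, 15, 21 and 22 were counted by position only, where much of the sequence is unresolved.

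The peaks come from HCT116 cells, an established colorectal carcinoma line, in which both alleles of TRAIP carried a mini-auxin-inducible degron (mAID) and OsTIR1, which recognises it, was expressed from a CMV promoter, so that indole-3-acetic acid (IAA, auxin) removed the protein. All cells, treated or not, carried the degron and OsTIR1, were arrested in G1 with 20 µM lovastatin for 24 hours, and were released with 2 mM mevalonic acid and taken in S-phase. Chromatin was immunoprecipitated for γ-H2AX (phosphorylated on Ser139) or for total H2AX, without and with IAA, with 2 repeats in each of the 4 conditions and 8 libraries in all. The labels name no clone. The authors called γ-H2AX peaks with IAA over those without IAA in each repeat and kept the regions shared by both. The list holds a position for each peak and no height or score, so no value per library, and no change with IAA, could be compared between terminal and interior peaks. The errors below therefore cover the spread over regions, genes and chromosomes, and not that between the repeats.

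TRAIP is a RING-type ubiquitin ligase that travels with the replication machinery and acts on the replicative helicase when forks meet obstacles or each other. Phosphorylation of H2AX on Ser139 marks chromatin around damaged DNA and stalled forks. The end regions of human chromosomes are rich in genes, in CpG islands and in guanine-cytosine pairs, they hold many short genes, and the outermost sequence consists of telomere repeats bound by the shelterin complex. A CpG island is a stretch rich in GC in which the CpG dinucleotide is not depleted, and most promoters of broadly expressed genes lie in one.

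Printed here are sequences of terminal peaks, chosen to show the range from promoters to a CpG-poor tandem array and a GC-moderate intron. All are from hg38, on the plus strand, 5′ to 3′. Capitals mark stretches that match a quadruplex motif, defined as 4 runs of at least GGG with 1 to 7 bases (N) between them, or the same with CCC on this strand. Stretches that overlapped an annotated UTR were left out. The first pair lies close to the 17q end, at the divergent neighbours B3GNTL1 and METRNL, which have 0 and 3 motifs. RAC3 is 1 of the 4 genes the authors chose for ChIP RT-PCR. C1orf159 shows an array of repeated CCCC runs with 9 motifs and 9 CpG sites. The last is in a later intron of BAIAP2 and holds no motif.
B3GNTL1, whole peak, chr17:83051434-83051657: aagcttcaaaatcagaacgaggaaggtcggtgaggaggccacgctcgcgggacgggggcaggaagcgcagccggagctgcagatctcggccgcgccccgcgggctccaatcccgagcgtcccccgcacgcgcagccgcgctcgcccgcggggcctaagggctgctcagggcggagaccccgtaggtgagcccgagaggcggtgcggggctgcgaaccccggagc
METRNL, part of the peak, chr17:83079974-83080198: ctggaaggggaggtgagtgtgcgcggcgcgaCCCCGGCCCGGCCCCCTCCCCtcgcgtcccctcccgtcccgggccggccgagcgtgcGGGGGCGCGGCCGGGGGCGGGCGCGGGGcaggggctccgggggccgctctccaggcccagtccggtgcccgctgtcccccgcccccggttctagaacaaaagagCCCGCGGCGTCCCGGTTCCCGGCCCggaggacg
RAC3, part of the downstream peak, chr17:82031762-82032060: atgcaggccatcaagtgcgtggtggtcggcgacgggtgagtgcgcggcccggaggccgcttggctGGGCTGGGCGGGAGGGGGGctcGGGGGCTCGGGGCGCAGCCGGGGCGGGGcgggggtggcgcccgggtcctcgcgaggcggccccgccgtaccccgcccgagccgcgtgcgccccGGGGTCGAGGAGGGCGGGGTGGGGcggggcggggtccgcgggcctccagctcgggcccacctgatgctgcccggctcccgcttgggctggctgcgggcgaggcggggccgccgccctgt
C1orf159, whole peak, chr1:1115448-1115720: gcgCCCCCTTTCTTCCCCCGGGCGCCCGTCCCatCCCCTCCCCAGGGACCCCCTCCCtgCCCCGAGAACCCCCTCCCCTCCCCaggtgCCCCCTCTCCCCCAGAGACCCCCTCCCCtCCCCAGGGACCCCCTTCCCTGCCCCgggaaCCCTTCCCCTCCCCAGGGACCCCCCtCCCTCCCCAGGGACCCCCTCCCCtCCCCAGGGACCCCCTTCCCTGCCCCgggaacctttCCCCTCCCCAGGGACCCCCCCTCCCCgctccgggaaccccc
BAIAP2 intron, whole peak, chr17:81101539-81101754: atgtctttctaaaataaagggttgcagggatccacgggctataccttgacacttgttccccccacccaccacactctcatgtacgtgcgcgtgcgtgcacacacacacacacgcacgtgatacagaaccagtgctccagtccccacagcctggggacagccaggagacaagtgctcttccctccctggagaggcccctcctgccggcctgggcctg

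Terminal zones held far more of the peaks than of the sequence. They made up 21.5% of the sequence outside gaps (624 of 2911 Mb) and held 47.1% of the peaks (95% Wilson interval 42.9% to 51.3%), which is 41.2 peaks per 100 Mb against 12.6 in the interior. Genes were denser there too, and 29.4% of the 19970 protein-coding transcription start sites (TSS, here the 5′ end of the annotated gene) and 37.3% of computed CpG islands were terminal. Of the 2521 protein-coding TSS with a GC content over 70% in the surrounding 1 kb, 1232 were terminal (48.9%, 46.9% to 50.8%), a share within the interval of that of the peaks.

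Start sites in terminal zones had a peak more often than those in the interior. A conserved peak lay within 2 kb of 212 of the 5868 terminal TSS (3.61%) and of 228 of the 14102 interior TSS (1.62%), against 2.2% over all 19970. The difference was 2.00 percentage points (1.35 to 2.64, n = 23 chromosomes, adjusted p = 7.63e-06, linear model with errors clustered by the 23 chromosomes and Benjamini-Hochberg adjustment over 4 tests on TSS). The terminal share was the higher on 21 of 23 chromosomes, with chromosomes 11 and X as the exceptions. Over the TSS of all annotated genes the difference was 0.944 points, and at a limit of 5 Mb it was 3.31 (n = 23 chromosomes, adjusted p = 5.12e-05 and 0.000191).
Inside the terminal zones the share differed between bands of distance but did not fall steadily with it. It was 4.08% in the first Mb, 6.10% from 1 to 2 Mb, 5.13% from 2 to 5 Mb, 2.28% from 5 to 10 Mb and 2.77% from 10 to 15 Mb. The highest shares thus lay in the first 5 Mb, and beyond 5 Mb the values were close to the 2.22% found from 15 to 20 Mb. From 30 to 50 Mb the share was 1.30%. The slope within the zones was -0.206 percentage points per Mb (-0.354 to -0.0591, n = 23 chromosomes, adjusted p = 0.0164). Without chromosome 19 it was -0.189 (n = 22 chromosomes, adjusted p = 0.0615). The GC content around the TSS fell over the same distances, from a mean of 64.6% in the first Mb and 65.6% in the second to 59.0% from 5 to 10 Mb, and with GC content as a covariate, an alternative added after seeing the data, the slope was 0.0766 (-0.0614 to 0.215, n = 23 chromosomes, adjusted p = 0.349).

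**Figure D1:**
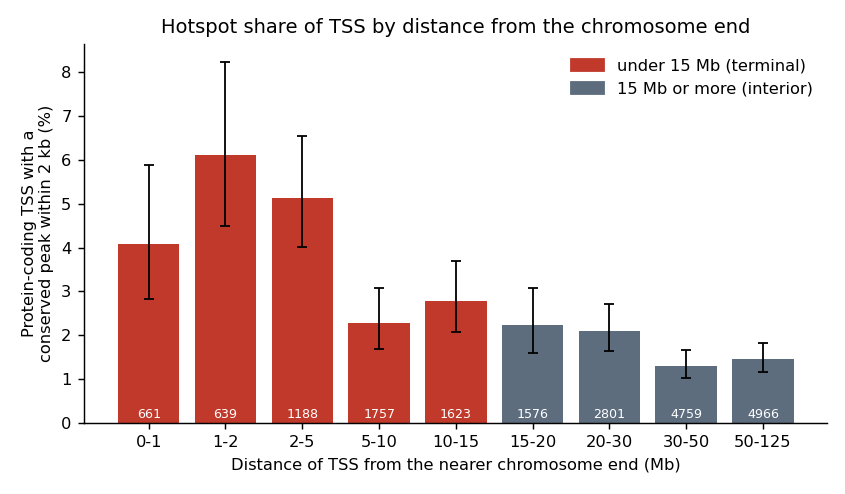
Percent of protein-coding TSS with a conserved γ-H2AX peak within 2 kb (vertical axis) by distance of the TSS from the nearer chromosome end in Mb (horizontal axis). Bars are shares, error bars 95% Wilson intervals, white figures the number of TSS, red bars terminal and grey bars interior. The first 3 bars, at 4.08% to 6.10%, lie above all others, which run from 1.30% to 2.77%.

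How much of the difference went with GC content depended on the window in which GC was measured. The odds ratio of a peak at a terminal against an interior TSS was 2.28 (1.86 to 2.79) with no adjustment. With GC in the 1 kb around the TSS as a smooth term it was 1.17 (0.949 to 1.45, n = 23 chromosomes, adjusted p = 0.179). With GC in 300 bp it was 1.53 (1.28 to 1.84, n = 23 chromosomes, adjusted p = 0.000151). Terminal TSS had a median GC content of 62.2% in 1 kb against 58.1% in the interior, and those with a peak had 74.5% against 69.4%. In bands of GC content, the intervals of the terminal and interior shares were apart in the top band and overlapped in the 5 below. In the top band 139 of 1045 terminal TSS between 71.2% and 84.5% GC had a peak (13.3%, 11.4% to 15.5%) against 90 of 985 interior TSS (9.14%, 7.49% to 11.1%). In the band below, from 67.3% to 71.2% GC, the shares were 3.22% and 3.62%. No test was run within bands. The top band is wide, and the GC content of terminal and interior TSS inside it was not compared. Of terminal TSS that had a computed CpG island in their 1 kb, 4.49% had a peak (210 of 4677), and of interior ones 2.1% (225 of 10710).

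**Figure D2:**
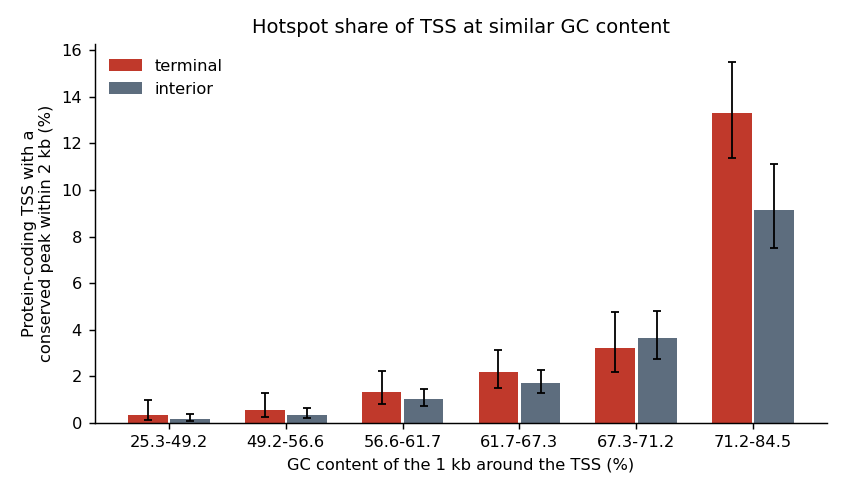
Percent of protein-coding TSS with a conserved peak within 2 kb (vertical axis) in 6 bands of GC content of the 1 kb around the TSS (horizontal axis, percent), for terminal (red) and interior (grey) TSS. Error bars are 95% Wilson intervals, which overlap in the 5 lower bands and not in the top band, at 13.3% and 9.14%.

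**Figure D3:**
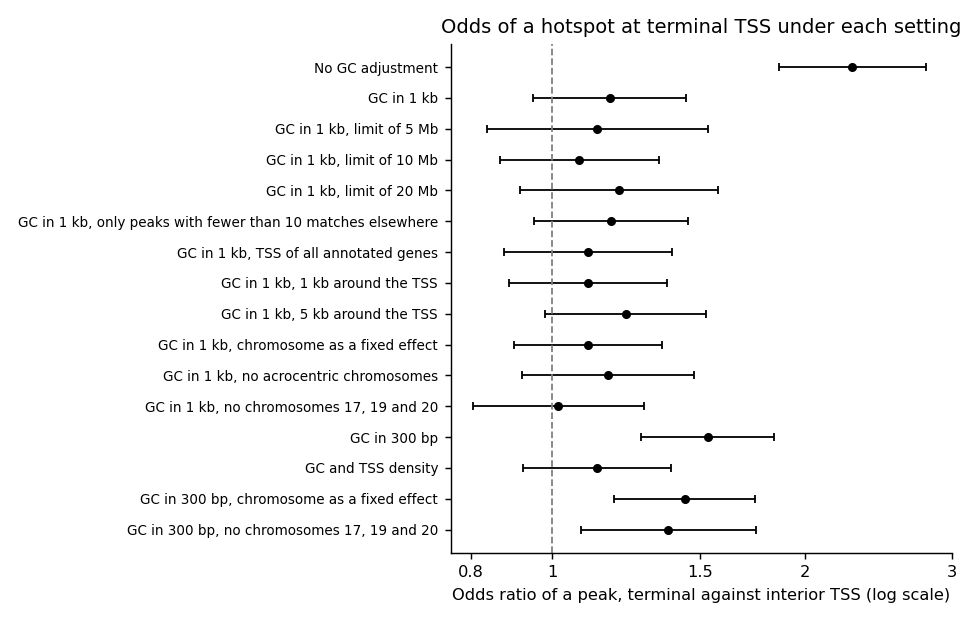
Odds ratio of a conserved peak at terminal against interior protein-coding TSS (horizontal axis, log scale) with its 95% interval, for each setting (rows). The unadjusted ratio is 2.28, and the interval excludes 1 in the 3 settings that use GC in 300 bp and in none that use GC in 1 kb.

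The ends differed among themselves. Of the 46 chromosome ends 40 held at least 1 peak, 4 short arms (13p, 14p, 15p and 22p) held no protein-coding TSS within the limit, and 21p and Xp held TSS and no peak. The most peaks were at 19p with 32, 17q and 9q with 20 each, and 8q and 22q with 14 each. Picked for their peak counts, these 5 ends held 100 of the terminal peaks (38.9%) and 21.7% of the terminal TSS. That choice raises the first share, and differences among ends were not tested. By share of TSS with a peak, 8q was highest among ends with over 100 TSS at 10.3% (13 of 126), followed by 12q at 8.21% (11 of 134), 20q at 8.15% (11 of 135) and 17q at 7.41% (16 of 216). Their Wilson intervals overlap, so this order is not resolved. Among the ends with over 100 TSS, Xq had the lowest share, 0 of 143 (upper bound 2.62%), followed by 11p with 1 of 267 (0.375%, 0.0661% to 2.09%) and 12p with 1 of 208 (0.481%), and these intervals overlap as well. The intervals of some chromosomes' arms did not overlap. At 19p 29 of 459 TSS had a peak (6.32%, 4.43% to 8.93%) and at 19q 7 of 530 (1.32%, 0.641% to 2.70%). The mean TSS GC content of these ends was 62.3% and 58.3%. The same held for 12q (4.65% to 14.1%) and 12p (0.0849% to 2.67%), and for 8q (6.13% to 16.9%) and 8p (0.172% to 5.30%). These arms were named after their values were seen.

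**Figure D4:**
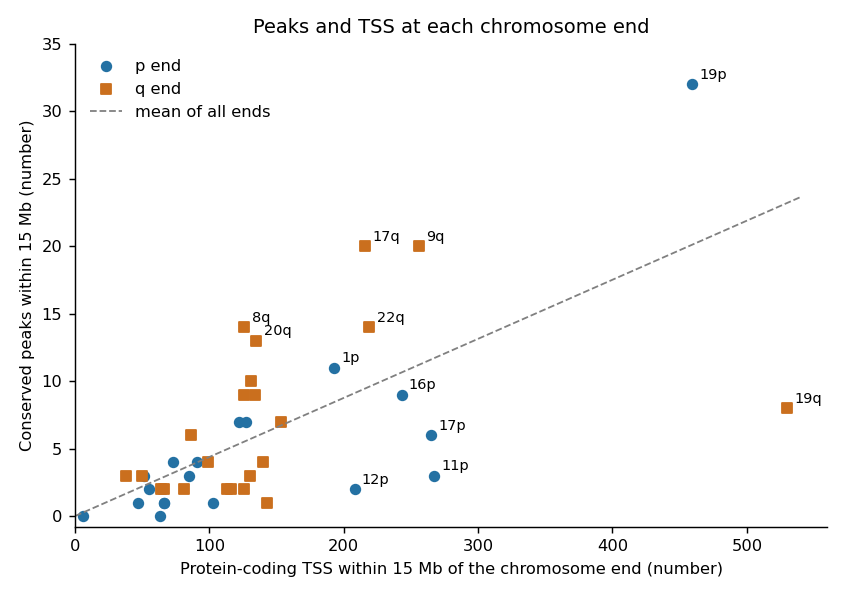
Conserved peaks (vertical axis, number) against protein-coding TSS (horizontal axis, number) within 15 Mb of each chromosome end, for p ends (circles) and q ends (squares); the dashed line is the mean number of peaks per TSS over all ends. The 19p end has 32 peaks for 459 TSS and 19q has 8 for 530, while 17q and 9q have 20 each.

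The terminal peaks nearest to an end lay at promoters. The outermost was at PARD6G on 18q, whose product takes part in cell polarity, with its midpoint 0.126 Mb from the end and in the 5′ UTR (chr18:80247331-80247611). SHANK3 on 22q, a scaffold of excitatory synapses, followed at 0.144 Mb (chr22:50674530-50675058). Then came METRNL at 0.177 Mb, which encodes a secreted meteorin-like factor, and B3GNTL1 at 0.206 Mb, a glycosyltransferase gene, both on 17q with 28316 bp between their peaks. The next were DIP2A on 21q at 0.251 Mb, the divergent pair DBNDD1 and GAS8 on 16q at 0.319 Mb, MIER2 and C2CD4C on 19p at 0.345 and 0.409 Mb, D2HGDH on 2q at 0.459 Mb and PPP6R2 on 22q at 0.475 Mb. All 10 had 73.2% to 84.5% GC, overlapped a computed CpG island and had a protein-coding TSS within 2 kb.
The telomere hexamer TTAGGG, read on both strands, was present in 10 of the 257 terminal peaks and in 9 of the 289 interior peaks.
Next to the limit, peaks just inside were at ARHGEF12 (14.75 Mb, 78.4% GC) and RBFOX2 (14.79 Mb, 82.4% GC). The 3 just outside were at TMEM51 (15.15 Mb), NOTCH3 (15.20 Mb) and EFHD2 (15.41 Mb), with 62.6% to 79.0% GC.

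The densest 1 Mb window was on 19p, from chr19:1000001 to 2000000, with 9 of its 39 protein-coding TSS at a peak. Its genes have varied roles. EFNA2 encodes an ephrin, DAZAP1 and MEX3D encode RNA-binding proteins, MBD3 a subunit of the NuRD remodelling complex, UQCR11 a subunit of respiratory complex III, SCAMP4 a secretory carrier membrane protein, ADAT3 a tRNA deaminase subunit and CSNK1G2 a casein kinase. A gene without a symbol shares the peak of UQCR11. A further pair of peaks there lay in the 5′ UTR of STK11, a kinase gene, and in the first intron of KLF16. Both were over 2 kb from the 5′ end of the annotated gene. The UTR is that of the canonical transcript, whose own start was not used for this distance.
On 1p, the window chr1:1000001 to 2000000 held 6 peaks at 7 of 41 TSS. AGRN encodes the heparan sulfate proteoglycan agrin, DVL1 a transducer of Wnt signals, GNB1 a G protein beta subunit, ACAP3 an Arf GTPase-activating protein, PUSL1 a pseudouridine synthase-like protein and MMP23B a metalloproteinase, and the seventh gene was C1orf159. On 17q, chr17:81000001 to 82000000 held 5 peaks and 5 such genes among 36 TSS, namely BAIAP2, MCRIP1, PPP1R27, P4HB and NOTUM. Windows on 20q and 9q also held 5 peaks, with 5 of 22 and 4 of 40 TSS at a peak, so the third place was tied. A run of 5 peaks on 17q, each within 100 kb of the next, reached past the edge of the 17q window and spanned 199 kb from MCRIP1 to the pair at RAC3.

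All 4 genes chosen by the authors for ChIP RT-PCR were terminal and lay on 17q. They were picked on these data, so their presence in the list is a description. P4HB, the beta subunit of prolyl 4-hydroxylase and a protein disulfide isomerase, had a peak of 285 bp whose midpoint was 276 bp downstream of the TSS. RAC3, a small GTPase of the Rac group, had 2 peaks 262 bp apart, 1 on each side of the TSS at position 82031678. BAIAP2, an adaptor of the actin cytoskeleton, had a peak of 468 bp in its first intron and a second peak, of 216 bp and 59.3% GC, in a later intron. WDR45B, an autophagy factor, had a peak of 215 bp across its TSS at 82648553. ADGRB1, an adhesion receptor whose product binds BAIAP2, had 2 peaks, in its first intron and in a later intron on 8q, 2.69 and 2.63 Mb from the end, and neither was within 2 kb of its annotated TSS.

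Lists of genes were read against the 3.61% of all terminal TSS. They were chosen with results of these data known, and no test was applied to them. Of 35 terminal chromatin regulator genes, 8 had a peak (22.9%). The 8 were the bromodomain proteins BRD1 and BRD3, CBX2 and CBX7 of the Polycomb repressive complex 1, EZH2, the methyltransferase of Polycomb repressive complex 2, KMT2C, a histone H3 lysine 4 methyltransferase, and the remodelling ATPases CHD3 and SMARCA4. The KMT2C peak had the highest GC content of all terminal peaks, 89.8%, and the EZH2 peak had 75.2%. The peak at SMARCA4, 539 bp wide, was centred 2 bp from the TSS. Among interior genes of the list 4 of 66 had a peak (6.06%, where all interior TSS had 1.62%).
In the neural receptor and channel list, 4 of 71 terminal genes had a peak (5.63%, where all terminal TSS had 3.61%). Of its interior genes 0 of 128 had a peak, where all interior TSS had 1.62%. Beside these shares, neither count is a result about the genes of the list. Among the terminal genes were ADRA2C, an alpha-2 adrenergic receptor, CACNA1H, a T-type calcium channel with 2 peaks 222 bp apart, and SHANK3. Of 13 terminal Wnt genes, DVL1 and the ligand WNT7A had a peak (15.4%), and of 48 interior ones AXIN2 did (2.08%).
No terminal gene had a peak in 3 lists. These were telomere maintenance with 0 of 9 genes, among them TERT, RTEL1 and DKC1, the replisome list with 0 of 6 and the FOX and SOX transcription factors with 0 of 26. With 3.61% of all terminal TSS at a peak, counts of 0 in lists of these sizes are no result about their genes.

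Terminal peaks lay closer together than interior ones. The median distance to the nearest peak was 288067 bp at the ends and 1.18e+06 bp inside. The ratio of the geometric means was 0.255 (0.160 to 0.407, n = 23 chromosomes, adjusted p = 3.62e-05, linear model clustered by chromosome, Benjamini-Hochberg adjustment over 9 properties of peaks). A neighbour within 100 kb was found for 27.6% of terminal peaks (71 of 257) and 9.0% of interior peaks (26 of 289), and within 1 Mb for 80.5% and 46.4%. Peaks were denser at the ends (41.2 against 12.6 per 100 Mb), which by itself shortens the distance to the nearest peak. Spacing relative to the density of peaks was not tested. Start sites were denser around terminal peaks as well, with a median of 31 protein-coding TSS within 1 Mb against 21. With this density as a covariate, added after seeing the data, the difference in log10 distance went from -0.593 to -0.463 (n = 23 chromosomes, adjusted p = 0.00235). Close groups of at least 3 terminal peaks occurred on 8q, 17q, 19p and 20q, the last over 117 kb with LSM14B, SS18L1 and PSMA7.

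The sequence of terminal peaks was slightly richer in GC. Their median GC content was 80% (quartiles 76.7% and 82.8%) against 78.5% (75.6% and 81.2%), and the means differed by 1.44 percentage points (0.439 to 2.44, n = 23 chromosomes, adjusted p = 0.0206). Among peaks within 2 kb of a protein-coding TSS, a choice made after seeing the data, the difference was 2.20 (n = 23 chromosomes, adjusted p = 8.68e-05). Compared within chromosomes it was 1.12 (-0.117 to 2.37, n = 23 chromosomes, adjusted p = 0.129). A single terminal peak fell far below the others, at 35.6% GC in the first intron of AFF2 on Xq (named after its value was seen). It was also the 1 terminal peak of the X chromosome.
Nearly all peaks of either kind overlapped a computed CpG island, 250 of 257 (97.3%) and 275 of 289 (95.2%), a difference of 2.12 points (-0.875 to 5.12, n = 23 chromosomes, adjusted p = 0.176). Under a stricter island definition the shares were 94.2% and 88.2% (5.93 points, n = 23 chromosomes, adjusted p = 0.0186), and without chromosome 11 the main definition gave 3.13 points (adjusted p = 0.0155). With the main definition it was -0.0194 points without repeated peaks and 0.662 at a limit of 10 Mb. The ratio of observed to expected CpG had medians of 0.948 and 0.960, and the means, 0.936 and 0.910, differed by 0.0257 (-0.00393 to 0.0554, n = 23 chromosomes, adjusted p = 0.129). That difference was -0.0141 without repeated peaks and 0.00535 at a limit of 10 Mb.

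Terminal peaks were wider, with a median of 326 bp (214 to 1307) against 296 bp (213 to 1038) and a ratio of geometric means of 1.11 (1.03 to 1.21, n = 23 chromosomes, adjusted p = 0.0224). This call was lost without chromosome 1 (adjusted p = 0.0504, n = 22 chromosomes). It was also lost within chromosomes, at a limit of 10 Mb, without repeated peaks and at protein-coding TSS (adjusted p = 0.0807, 0.0643, 0.0896 and 0.0615, n = 23 chromosomes). Peaks wider than 500 bp made up 17.5% of terminal peaks (45) and 8.30% of interior peaks (24). The 5 widest peaks of the whole list were all terminal, and each was within 2 kb of a protein-coding TSS. ADRA2C on 4p had the widest at 1307 bp (chr4:3765423-3766729), which spans the TSS of a gene of 2179 bp. It was followed by CDK2AP1, which encodes a CDK2-associated protein, at 1116 bp on 12q, BRD3 at 1105 bp on 9q, CMIP, an adaptor protein gene, at 1084 bp on 16q and the transcription factor gene EBF4 at 1076 bp on 20p.

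**Figure D5:**
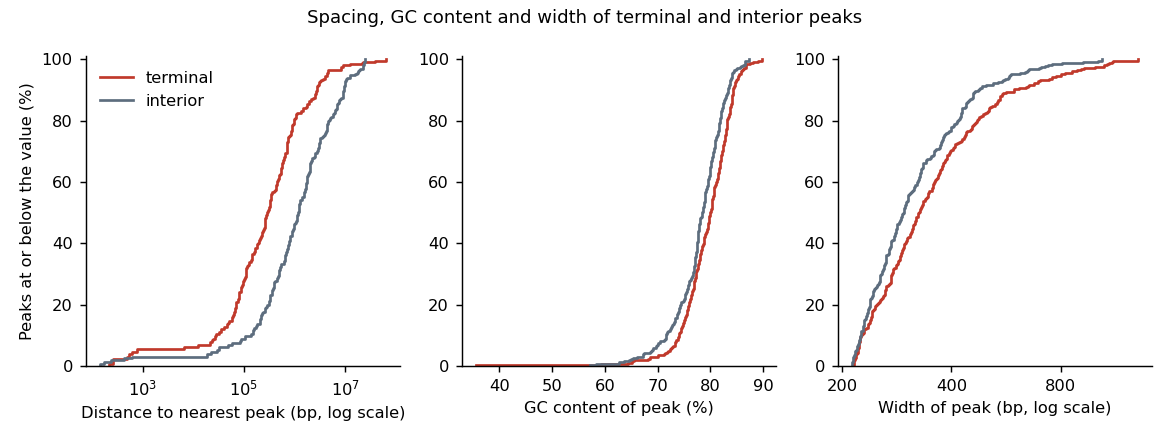
Cumulative percent of peaks (vertical axes) by distance to the nearest peak in bp (left, log scale), GC content in percent (middle) and width in bp (right, log scale), for 257 terminal (red) and 289 interior (grey) peaks. The terminal curve lies to the left for distance, with medians of 288067 and 1.18e+06 bp, and to the right for width, with medians of 326 and 296 bp, and the GC medians are 80% and 78.5%.

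A quadruplex motif as defined above was present in 200 of 257 terminal peaks (77.8%) and 204 of 289 interior peaks (70.6%), a difference of 7.23 points (-2.83 to 17.3, n = 23 chromosomes, adjusted p = 0.176). Without chromosome 17 it was 10.1 and without chromosome 1 it was 4.61 (n = 22 chromosomes each, adjusted p = 0.0473 and 0.353). At a limit of 10 Mb it was 11.8 (1.46 to 22.1, n = 23 chromosomes, adjusted p = 0.0407). In 300 bp windows around all protein-coding TSS the motif was found at 34.8% of terminal and 27.4% of interior sites. With only 1 to 3 bases allowed between the runs, the shares were 46.3% and 30.1% (16.2 points, 6.39 to 26.0, n = 23 chromosomes, adjusted p = 0.00726), and 15.2% and 11.04% of the windows. With GC content and width as covariates, added after seeing the data, the difference was 0.223 points with the longer gaps and 8.99 with the shorter (n = 23 chromosomes, adjusted p = 0.953 and 0.0566). The METRNL, RAC3 and C1orf159 peaks printed above hold several such stretches.

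No difference in the share of peaks near a TSS was resolved. Of terminal peaks 202 (78.6%) and of interior peaks 228 (78.9%) had the TSS of a gene of any type within 2 kb, a difference of -0.294 points (-8.45 to 7.86, n = 23 chromosomes, adjusted p = 0.941), an interval that allows differences of several points either way. The value was -4.79 without repeated peaks, -2.86 at a limit of 10 Mb and 0.920 at 20 Mb, and its sign turned when chromosome 1, 2, 4, 6, 9, 11 or 17 was left out. With protein-coding genes alone the shares were 76.7% and 70.9% (5.72 points, n = 23 chromosomes, adjusted p = 0.156). With the starts of all annotated transcripts they were 88.3% and 88.6% (-0.254 points, n = 23 chromosomes, adjusted p = 0.919). The midpoint lay in a first intron for 61 terminal peaks (23.7%), in a 5′ UTR for 45 (17.5%), in a coding exon for 13, in a later intron for 13, in a 3′ UTR for 1 and outside canonical protein-coding transcripts for 124 (48.2%). Of the 212 terminal genes 6 had 2 peaks within 2 kb of the TSS. CCDC85C, AGPAT3, CACNA1H and RAC3 had a pair each, and MRPS6 and SLC5A3 shared a pair.
The direction of transcription was compared in the same way. Of the 212 terminal genes with a peak 104 (49.1%) were transcribed towards the chromosome end, and of the 5656 without a peak 51.1% (difference -2.0 points, -10.7 to 6.69, n = 23 chromosomes, adjusted p = 0.637).
Genes with a terminal peak had a median length of 36305 bp and those with an interior peak 62134 bp (ratio of geometric means 0.668, 0.492 to 0.907, n = 23 chromosomes, adjusted p = 0.0224). Genes without a peak were also shorter at the ends, with medians of 20728 and 30631 bp. Relative to them, a comparison added after seeing the data, the log10 difference went from -0.175 to -0.0366 (-0.177 to 0.103, n = 23 chromosomes, adjusted p = 0.667). The difference of -0.175, which is not relative to genes without a peak, was -0.143, -0.158 and -0.162 without chromosome 17, 19 or 20, with adjusted p = 0.0772, 0.0842 and 0.0529 (n = 22 chromosomes each). That call was also lost within chromosomes (-0.133) and at a limit of 20 Mb (-0.150), with adjusted p = 0.129 and 0.0643 (n = 23 chromosomes).

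Peaks in repeated sequence were less common at the ends. A peak was counted as repeated when at least 10 further places in hg38 matched at least 80% of it at 90% identity or more. This held for 11 terminal peaks (4.28%) and 37 interior peaks (12.8%), a difference of -8.52 points (-13.0 to -4.05, n = 23 chromosomes, adjusted p = 0.00305). The 11 had 19 to 1923 matches elsewhere, with a median of 1194, and 74.0% to 83.0% GC. They lay in introns of RYR2, SNX25, MED27, ANKRD11, METTL16, LONP1 and XRCC6 or outside canonical protein-coding transcripts. None was within 2 kb of a gene TSS, against 9 of the 37 interior repeated peaks, a difference that was not tested. Over the 48 repeated peaks, 16.02% of the matching places were in terminal zones. Among the 498 other peaks, 246 were terminal (49.4%).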

How the data were processed

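The deposited file is a list of peak positions (chromosome, start and end on hg38, read here as 0-based starts), a unit of position with no score. Per the methods and the submitters' processing notes, the authors aligned reads with Bowtie2 2.4.2, called γ-H2AX peaks of cells with IAA against those without in each repeat with MACS2 2.1.1, and intersected the repeats with bedtools. The list has no total count per library, so depth was not used here. No other column of per-sample values was present.

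Genes came from GENCODE 44 (19970 protein-coding genes on chromosomes 1 to 22 and X) and sequence from hg38. CpG islands were computed (at least 200 bp, GC of at least 50%, observed to expected CpG of at least 0.6), since no island annotation was given, and repeats were found with blastn 2.17.0. Islands in repeats were not masked, so their number is high. Linear and logistic models (statsmodels 0.14.6, errors clustered by chromosome) were also run on simulated data. The simulated TSS outcomes were drawn independently for each TSS. Those runs therefore cannot show how the clustered errors hold where neighbouring TSS are dependent. The 95% intervals of shares are Wilson's and cover counting error only, and neighbouring peaks or TSS are not independent.

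The members, gene lists and tests were chosen with earlier results of these data known. Named genes were the 4 ChIP RT-PCR genes, those at the 10 terminal peaks nearest an end, the 5 widest and 3 of the densest 1 Mb windows (the third tied with 2 others), members of the lists and the 3 peaks on each side of the limit, and the other genes, such as those with a pair of peaks, in the 20q group, at repeated peaks or ADGRB1, were named after their values were seen. One gene that this rule names and one sequence are not reported here. Alternatives were the limit, the TSS distance and set, the GC window, the motif, the island and repeat definitions, chromosome terms and leaving out each chromosome.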

Additional observations from a re-analysis of the deposited data

How the results depend on the processing

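Of 80 alternatives other than leaving out a chromosome, 61 kept the direction and the side of the threshold of 0.05 on the adjusted p, and 13 of the 80 were chosen after seeing the data. The spacing of peaks, the share of TSS with a peak and the share of repeated peaks kept both under every alternative run, including each chromosome left out. The alternatives for the share of TSS held no GC term. With GC in 1 kb in the logistic model, the odds ratio went from 2.28 to 1.17 (0.949 to 1.45), which did not pass the threshold. Spacing relative to the density of peaks was not tested. The GC difference was 1.12 points within chromosomes. The log10 width difference, 0.0466, was 0.0446 at a limit of 10 Mb, 0.0388 within chromosomes, 0.0397 without repeated peaks and 0.0442 at protein-coding TSS, none of which passed the threshold. The log10 gene length difference, -0.175, was -0.150 at 20 Mb, -0.133 within chromosomes and -0.0366 relative to genes without a peak, none past the threshold. The island share gave 5.93 points under the stricter definition and -0.0194 without repeated peaks, and the CpG ratio -0.0141 without them. The TSS share of peaks, -0.294 points, was -4.79 without repeated peaks, -2.86 at 10 Mb, 0.920 at 20 Mb and 5.72 for protein-coding genes. The quadruplex share was 11.8 points at 10 Mb and 16.2 with the shorter gaps, both past the threshold. With GC content and width as covariates it was 0.223 with the longer gaps and 8.99 with the shorter, neither past the threshold. The GC-adjusted odds ratio was 1.53 with GC in 300 bp, 1.44 with chromosome terms added and 1.38 without chromosomes 17, 19 and 20, where GC in 1 kb gave 1.02. The slope with distance was 0.0766 with GC as a covariate. The cause of these shifts was not tested.

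With each chromosome left out in turn, the island difference ran from 1.71 to 3.13 points, the TSS share of peaks from -1.62 to 1.34, log10 width from 0.0394 to 0.0598, the quadruplex difference from 4.61 to 10.1, log10 gene length from -0.200 to -0.143 and the slope from -0.237 to -0.163. No paired analysis was possible because the list gives no value per repeat. A stricter peak threshold could not be run, as the list holds no score.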
